A study of Mus musculus with 6 samples.

Results

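The genes described here are 47 nuclear genes for the respiratory complexes II to V, with cytochrome c and the tissue isoforms of cytochrome c oxidase. They were taken by symbol from a written list, 47 of 47 were found among the 32285 genes of the count table, and all 47 passed the filter on low counts. There are 4 genes of complex II, 9 of complex III, Cycs, 17 of complex IV and 16 of complex V. Their counts come from RNA-seq of whole mouse kidney, 3 kidneys with a high and 3 with a low load of a mutation in TrnE, which mitochondrial DNA (mtDNA) encodes and which gives the tRNA for glutamate. The load is the percentage of mtDNA copies with the mutation. It was 75%, 75% and 80% in high-load kidneys 1 to 3 and 10%, 5% and 15% in low-load kidneys 1 to 3, so the low-load kidneys carried the mutation too. All mice are described as females of 100 weeks. Strain, nuclear genotype and the way the mutation was introduced do not appear in the labels.

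Complexes II, III and IV pass electrons from succinate and other substrates to oxygen, and complexes III and IV pump protons across the inner mitochondrial membrane as they do so. Complex V, the ATP synthase, lets the protons flow back and makes ATP. Complex II is encoded by nuclear genes alone, whereas III, IV and V combine nuclear subunits with subunits made on mitochondrial ribosomes, which need the mitochondrial tRNAs. Kidney tubules, above all the proximal tubule, are rich in mitochondria and draw most of their ATP from this chain.

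Total counts per library were 18090197 to 18613697 in high-load kidneys and 17449270 to 18865997 in low-load kidneys. Values are CPM, counts scaled to a library of common size with TMM factors that correct for differences in composition, and means are given ± SD with n = 3 per group. Fold changes are high load over low load from edgeR's quasi-likelihood test, with Benjamini-Hochberg adjustment over all 15955 genes tested and a threshold of 0.05. A pair of libraries stood apart from the rest. Low-load 2 went against its stated sex: Xist, the RNA of the inactive X chromosome, was at 0.182 CPM there and at 662 to 948 CPM in the other libraries, and the Y-linked genes Ddx3y, Eif2s3y, Kdm5d and Uty were at 67.4, 77.5, 25.6 and 24.5 CPM there and had no count elsewhere. High-load 1 had the lowest summed level of 12 proximal tubule markers, 4504 CPM. The sum was 22384 and 12156 CPM in high-load 2 and 3 and 20608 to 27617 CPM in low-load kidneys. Of it the marker Kap alone made up 150, 9589 and 2955 CPM in high-load 1 to 3 and 4408 to 10599 CPM in low-load kidneys. On the log2 scale the median of the 12 against the low-load mean was -2.07, -0.30 and -0.87 in high-load 1 to 3. In low-load kidneys that median was -0.13 to 0.013. Results are therefore also given without low-load 2 and without high-load 1. All 12 proximal tubule markers were detected in the kidneys, and 0 of them had a count of 0 throughout.

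No gene of the 47 passed the test between high-load and low-load kidneys. The lowest adjusted p was 0.143, for Uqcrc2. Over all genes 3 of 15955 passed (0.0188%), each of them higher, and 0 passed as lower (0.0%). At an adjusted p under 0.1 the count was 0 of 47 (3.2% of all genes). At an unadjusted p under 0.05 in edgeR, 5 of 47 were lower (10.2% of all genes) and 0 were higher (14.0% of all genes). The count of 5 was 5 without high-load 1 (8.09% of all genes), 1 without low-load 2 (6.25%) and 1 without both (7.71%). DESeq2 called 2 of 47 lower, Uqcrc2 and Atp5a1. It called 619 of 23811 genes lower (2.6%), a share over a set with no filter on low counts. That set is wider than the 15955 genes of the edgeR test, a filter which all 47 genes passed. What the genes shared was a small displacement in one direction: 43 of 47 had a fold change below 1 (49.1% of all genes). The median log2 fold change was -0.19, against 0.0067 over all genes tested. Scaled with library totals in place of TMM, the median was -0.078 and that of all genes tested 0.126, with a sign opposite to that under TMM for 10 of the 47 genes.

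That displacement was carried to a large part by high-load 1. Of the 47 genes, 43 had their lowest value of the 6 kidneys in that library (91.5%), against 29.9% of all genes tested. Without high-load 1 the median log2 fold change was -0.027 and 29 of 47 genes lay below a fold change of 1 (49.0% of all genes). Without low-load 2 it was -0.17 with 43 of 47 below (48.5% of all genes), and without both libraries -0.036 with 29 of 47 below (48.8%). A smaller set of 13 of 47 genes had all 3 high-load kidneys below all 3 low-load kidneys (15.8% of all genes), and 0 had them above (17.1% of all genes). The 13 are Sdha, Sdhc, Sdhd, Uqcrc1, Uqcrc2, Uqcrfs1, Cyc1, Cox4i1, Cox4i2, Cox7b, Atp5a1, Atp5b and Atp5f1. Without high-load 1 the 2 remaining high-load kidneys lay below all 3 low-load kidneys for 13 of 47 genes (19.3% of all genes) and above them for 6 of 47 (20.4%).

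**Figure D1:**
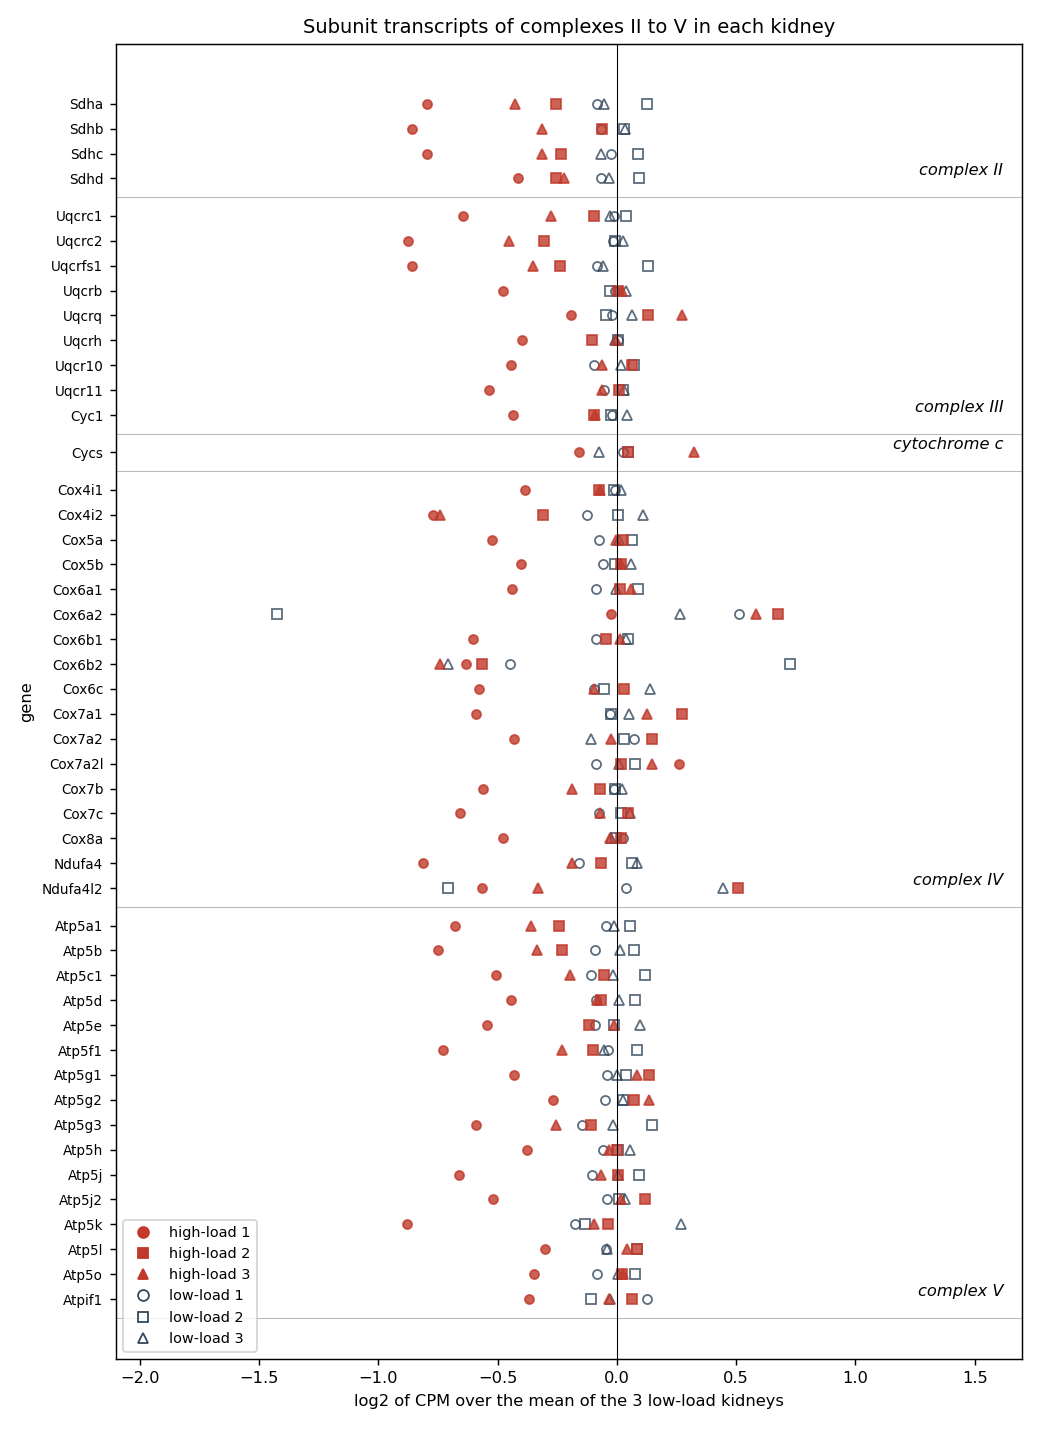
CPM of each of the 47 genes in each kidney, as log2 of the value over the mean of the 3 low-load kidneys (x axis), grouped by complex down the page; filled red symbols are high-load kidneys and open symbols low-load kidneys. High-load 1 (circles) is the lowest point for 43 of 47 genes. In 13 of 47 genes high-load 2 and 3 also lie below the open symbols, among them Sdha, Sdhc, Sdhd, Uqcrc2, Uqcrfs1, Atp5a1 and Atp5b.

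Promoters of respiratory genes are known targets of NRF1, of the ETS factor GABP, of YY1 and of the estrogen-related receptors (ESRR), which drive nuclear subunits together. RefSeq (GRCm38.p6) gave the window of 250 bases before to 50 after the start for 36 of 47 genes. The letters searched on both strands were GCGCANGCG for NRF1, CCGGAAG for ETS factors, AANATGGCG for YY1 and TNAAGGTCA for ESRR, and no match of 1 factor's letters overlapped a match of another's in these windows, while NRF1 matches overlapped each other in 4 places, where both strands read alike. The NRF1 letters stood in the windows of 14 of 36 genes (38.9%), against 13.2% of 12069 tested genes with a window. ETS letters stood in 12 of 36 (33.3% against 17.9%), YY1 letters in 4 (11.1% against 5.18%) and ESRR letters in 2 (5.56% against 1.03%). At least 1 of the 4 was present for 22 of 36 genes (61.1% against 31.8%). Of the 13 genes that were lower in all 3 high-load kidneys, 7 had a window, with a match in 4 and none in 3 (Uqcrfs1, Cox7b and Atp5f1). Of the other 29 genes with a window, 18 had a match and 11 had none. Shown are the 4 windows with a match among the 7, and 1 of the 3 without. They are Sdha (chr13:74350191-74350490, minus strand) with 3 NRF1 matches, Sdhd (chr9:50603800-50604099, minus strand) with an NRF1, an ETS and an ESRR match, Uqcrc1 (chr9:108936398-108936697, plus strand) with 3 NRF1 matches, of which a pair overlaps, Uqcrfs1 (chr13:30545267-30545566, minus strand) with no match, and Atp5b (chr10:128083057-128083356, plus strand) with a YY1 match. Capitals mark the matches, and each sequence runs 5′ to 3′ on the gene's strand.
Sdha: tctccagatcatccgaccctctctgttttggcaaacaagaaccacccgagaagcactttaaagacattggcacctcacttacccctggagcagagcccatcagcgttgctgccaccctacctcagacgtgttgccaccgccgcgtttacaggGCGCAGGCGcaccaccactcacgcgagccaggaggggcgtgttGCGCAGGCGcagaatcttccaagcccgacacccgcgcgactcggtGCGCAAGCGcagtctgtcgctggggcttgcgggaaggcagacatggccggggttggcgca
Sdhd: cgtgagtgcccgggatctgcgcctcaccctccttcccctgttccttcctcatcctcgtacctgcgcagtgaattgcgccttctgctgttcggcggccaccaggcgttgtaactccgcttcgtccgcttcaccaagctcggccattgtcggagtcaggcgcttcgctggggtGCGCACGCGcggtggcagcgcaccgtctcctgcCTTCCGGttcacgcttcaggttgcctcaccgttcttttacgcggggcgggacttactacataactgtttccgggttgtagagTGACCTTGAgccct
Uqcrc1: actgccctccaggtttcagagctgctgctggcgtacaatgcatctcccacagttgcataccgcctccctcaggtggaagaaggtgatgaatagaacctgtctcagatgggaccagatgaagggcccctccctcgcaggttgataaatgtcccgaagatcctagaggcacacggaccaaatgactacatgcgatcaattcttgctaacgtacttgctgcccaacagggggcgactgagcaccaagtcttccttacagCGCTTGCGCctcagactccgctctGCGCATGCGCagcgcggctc
Uqcrfs1: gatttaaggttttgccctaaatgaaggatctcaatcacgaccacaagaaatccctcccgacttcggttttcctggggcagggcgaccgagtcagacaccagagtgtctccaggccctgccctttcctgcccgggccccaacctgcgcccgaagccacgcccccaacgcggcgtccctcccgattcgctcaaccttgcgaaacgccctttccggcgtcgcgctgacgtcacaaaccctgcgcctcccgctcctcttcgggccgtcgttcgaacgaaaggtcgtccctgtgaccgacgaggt
Atp5b: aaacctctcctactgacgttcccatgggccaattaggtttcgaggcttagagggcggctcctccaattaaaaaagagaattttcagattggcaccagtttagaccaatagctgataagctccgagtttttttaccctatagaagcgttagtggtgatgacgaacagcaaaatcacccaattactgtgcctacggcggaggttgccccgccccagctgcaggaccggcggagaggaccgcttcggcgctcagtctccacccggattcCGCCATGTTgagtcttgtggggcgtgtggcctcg
These matches are letters in a window and show no binding. Genes lower in all 3 high-load kidneys stood on both sides, with and without a match.

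Complex II, succinate dehydrogenase, links the citric acid cycle to the chain and was the complex with the lowest median, a log2 fold change of -0.40 over its 4 genes. All 4 lay below a fold change of 1 (49.1% of all genes). In 3 of them the groups did not overlap (15.8% of all genes), and 0 of 4 passed the adjusted test. The median was -0.25 without high-load 1, -0.37 without low-load 2 and -0.21 without both.

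Sdha, the flavoprotein that oxidises succinate, had 422, 613 and 544 CPM in high-load kidneys, against 691, 799 and 706 CPM in low-load kidneys. The groups did not overlap, and the log2 fold change was -0.48 (SE 0.18, adjusted p 0.175). Sdhb, the iron-sulfur subunit, had 164, 284 and 239 CPM in high-load kidneys, against 283, 303 and 305 CPM in low-load kidneys. Here high-load 2 lay level with the lowest low-load kidney, and the log2 fold change was -0.37 (SE 0.20, adjusted p 0.299). Both membrane anchors, which hold the heme and the quinone site, showed the same order. For Sdhc the values were 221, 326 and 308 CPM in high-load kidneys, against 376, 407 and 365 CPM in low-load kidneys, a log2 fold change of -0.43 (SE 0.17, adjusted p 0.194). For Sdhd they were 178, 199 and 204 CPM in high-load kidneys, against 227, 253 and 232 CPM in low-load kidneys, a log2 fold change of -0.29 (SE 0.11, adjusted p 0.171). Sdhd showed the narrowest spread of the 4 in high-load kidneys, 194 ± 13.7 CPM against 237 ± 14.1 CPM in low-load kidneys, and was the one whose fold change moved least without high-load 1, to -0.23.

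Complex III, the cytochrome bc1 complex, takes electrons from ubiquinol to cytochrome c. Over its 9 genes the median was -0.18 on the log2 scale, with 8 below a fold change of 1 (49.1% of all genes). In 4 of 9 the groups did not overlap (15.8% of all genes), and 0 passed the adjusted test. Without high-load 1 the median was -0.051, with 6 of 9 below 1. The 4 genes that did not overlap were those of the core proteins, the Rieske protein and cytochrome c1.

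Uqcrc2 (chromosome 7, 120635176 to 120659524, plus strand, mm10), a core protein, had 239, 355 and 321 CPM in high-load kidneys, against 434, 436 and 447 CPM in low-load kidneys. The low-load kidneys lay close together and above every high-load kidney, and the log2 fold change of -0.53 (SE 0.17, adjusted p 0.143) had the smallest p of all 47 genes. It was -0.37 without high-load 1 and -0.53 without low-load 2. Up to 504 bases of its exons lie opposite exons of Pdzd9, and the sources used here do not say if reads were counted by strand.

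Uqcrfs1, the Rieske iron-sulfur protein, had 237, 363 and 336 CPM in high-load kidneys, against 404, 469.9 and 412 CPM in low-load kidneys. Its log2 fold change was -0.46 (SE 0.19, adjusted p 0.197) with no overlap, and -0.29 without high-load 1. Uqcrc1, the partner core protein, had 275, 402 and 355 CPM in high-load kidneys, against 426, 441 and 421 CPM in low-load kidneys, a log2 fold change of -0.32 (SE 0.16, adjusted p 0.273). High-load 2 lay just under the lowest low-load kidney, and without high-load 1 the value was -0.18. Cyc1, cytochrome c1, averaged 285 ± 37.2 CPM in high-load kidneys and 327 ± 8.73 CPM in low-load kidneys, a log2 fold change of -0.20 that was -0.092 without high-load 1.

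The small supernumerary subunits of complex III lay closer to a fold change of 1. Uqcrb, Uqcrh, Uqcr10 and Uqcr11 had log2 fold changes of -0.18 to -0.13 with all kidneys and of -0.051 to 0.016 without high-load 1. Uqcrq, a subunit beside the quinone site, was the one gene of the complex above a fold change of 1, with 133, 167 and 184 CPM in high-load kidneys, against 150.0, 148 and 159 CPM in low-load kidneys. Its groups overlapped through high-load 1, and the log2 fold change was 0.083 (SE 0.14, adjusted p 0.739). Cycs, the cytochrome c that carries electrons from complex III to IV, had 164, 189 and 229 CPM in high-load kidneys, against 186, 189 and 173 CPM in low-load kidneys. The high-load values surrounded the low-load ones, with a log2 fold change of 0.085 (SE 0.14, adjusted p 0.744).

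Complex IV, cytochrome c oxidase, reduces oxygen to water. Its catalytic core is made from mtDNA, and the 17 nuclear genes listed here are 12 widely expressed subunits and 5 isoforms of restricted tissues. Over the 12 the median log2 fold change was -0.16, with 11 below 1 (49.1% of all genes). In 2 of 12 the groups did not overlap, a count near the share over all genes (15.8%), and 0 passed the adjusted test. Without high-load 1 their median was -0.0057, with 7 of 12 below 1. No other complex had a median closer to 0 in these 5 kidneys: all 17 genes had one of -0.0035.

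Cox4i1, the main form of the subunit that senses the ATP level, had 627, 776 and 779.7 CPM in high-load kidneys, against 814, 812 and 828 CPM in low-load kidneys. The groups did not overlap, but high-load 2 and 3 lay close under the lowest low-load kidney, and the log2 fold change was -0.17 (SE 0.15, adjusted p 0.517). Cox7b, a small membrane subunit, had 237, 333 and 307 CPM in high-load kidneys, against 347, 347 and 355 CPM in low-load kidneys, with a log2 fold change of -0.26 (SE 0.15, adjusted p 0.335). It too did not overlap, and the value was -0.12 without high-load 1. Ndufa4, once counted in complex I and now placed in complex IV, averaged 272 ± 69.2 CPM in high-load kidneys and 339 ± 30.9 CPM in low-load kidneys, a log2 fold change of -0.32 that was -0.12 without high-load 1. The other widely expressed subunits, Cox5a, Cox5b, Cox6a1, Cox6b1, Cox6c, Cox7a2, Cox7c and Cox8a, had log2 fold changes of -0.20 to -0.084 with all kidneys, and of -0.027 to 0.066 without high-load 1.

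Cox7a2l ran the other way. It encodes a relative of the subunit 7a that joins complexes III and IV into supercomplexes, and it had 178, 149.8 and 164 CPM in high-load kidneys, against 139, 156 and 149 CPM in low-load kidneys. High-load 1, the lowest kidney for 43 genes, was the highest for this one, and the log2 fold change was 0.15 (SE 0.10, adjusted p 0.422). Groups overlapped through high-load 2.

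The restricted isoforms of complex IV were low in all kidneys, and none of the 5 passed the adjusted test. Per kilobase of transcript, Cox4i2 stood at 1.10 CPM in high-load kidneys and 1.67 CPM in low-load kidneys and Cox6a2 at 1.63 and 1.20 CPM in the same order, against 977 and 1098 CPM for Cox4i1 and 612 and 658 CPM for Cox6a1. Their share was taken within each pair, as the isoform's CPM per kilobase over that of both genes, and tested with an exact two-sided permutation test whose smallest possible p is 0.1.

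Cox4i2, the isoform tied to low oxygen, had 0.709, 0.977 and 0.724 CPM in high-load kidneys, against 1.109, 1.22 and 1.31 CPM in low-load kidneys. These rest on 13 to 18 counts in a high-load kidney and 20 to 24 in a low-load kidney. Groups did not overlap, and the log2 fold change was -0.59 (SE 0.27, adjusted p 0.240), with -0.50 without high-load 1. Its share of the pair with Cox4i1 was 0.113 ± 0.017% in high-load kidneys and 0.151 ± 0.0111% in low-load kidneys (exact permutation p 0.1). Of 11 tested hypoxia target genes, 0 passed the adjusted test and 7 lay below a fold change of 1 (49.1% of all genes). Their median was -0.15 on the log2 scale, and -0.24 without high-load 1, where 12 were tested. Without low-load 2 the median was 0.045, with 5 of 11 below 1 (48.5% of all genes). With all kidneys the mitophagy receptor Bnip3 had the smallest p of the 11, with 86.8, 98.8 and 84.7 CPM in high-load kidneys, against 127, 144 and 114 CPM in low-load kidneys (adjusted p 0.102). Ndufa4l2, the hypoxia-induced relative of Ndufa4, had 4.49, 9.45 and 5.29 CPM in high-load kidneys, against 6.82, 4.07 and 9.04 CPM in low-load kidneys, and the groups overlapped (log2 fold change -0.056, adjusted p 0.943).

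Cox6a2 and Cox7a1 are the heart and skeletal muscle isoforms. Cox6a2 had 0.803, 1.30 and 1.22 CPM in high-load kidneys, against 1.16, 0.304 and 0.981 CPM in low-load kidneys. The low-load 2 value rests on 5 counts, and the log2 fold change of 0.42 (SE 0.49, adjusted p 0.621) was 0.042 without that kidney. Cox7a1 had 6.81, 12.4 and 11.2 CPM in high-load kidneys, against 10.0, 10.1 and 10.6 CPM in low-load kidneys, on both sides of them. Of 8 muscle markers, 1 had no count and 5 stayed under 10 counts in every library, with summed levels of 3.84 to 4.45 CPM in high-load kidneys and 2.13 to 4.03 CPM in low-load kidneys. Cox7a1 took 6.40 ± 0.691% of its pair with Cox7a2 in high-load kidneys and 6.24 ± 0.572% in low-load kidneys (exact permutation p 1.0), a much larger part than Cox6a2 took of its own pair, 0.264 ± 0.0225% in high-load kidneys and 0.186 ± 0.11% in low-load kidneys (exact permutation p 0.3).

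Cox6b2, the testis isoform of the subunit 6b, had 10.2, 10.7 and 9.46 CPM in high-load kidneys, against 11.6, 26.2 and 9.70 CPM in low-load kidneys. The log2 fold change of -0.64 (SE 0.37, adjusted p 0.328) came from low-load 2, the kidney with Y-linked transcripts, and was -0.075 without it. Summed levels of 5 germ cell markers were 0.380 to 1.00 CPM in high-load kidneys and 0.499 to 0.729 CPM in low-load kidneys. Low-load 2 also had the lowest value of Cox6a2 and of Cox8b, a muscle isoform outside the list, which had 2.13, 4.02 and 3.56 CPM in high-load kidneys, against 4.77, 0.0608 and 7.41 CPM in low-load kidneys. Isoforms Cox7b2 and Cox8c had no count in any kidney.

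**Figure D2:**
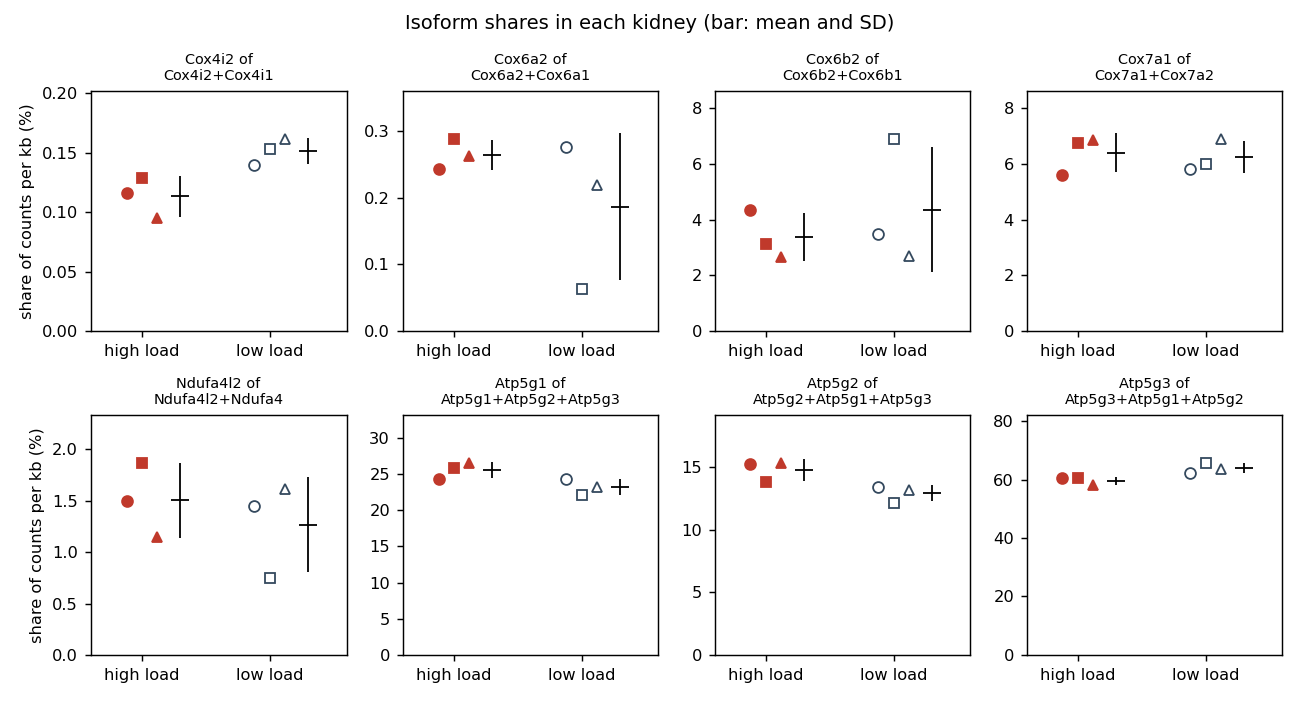
Share of each isoform among the genes named above its panel, in percent of counts per kilobase of transcript (y axis from 0), for high-load kidneys (filled) and low-load kidneys (open); the black mark is the mean with its SD. The shares of Cox4i2, Atp5g1, Atp5g2 and Atp5g3 do not overlap between groups, and low-load 2 (open square) stands apart for Cox6a2 and Cox6b2.

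Over the 16 genes of complex V the median was -0.20 on the log2 scale, all 16 below a fold change of 1 (49.1% of all genes). In 3 of 16 the groups did not overlap, a count near the share over all genes (15.8%), and 0 passed the adjusted test. Without high-load 1 the median was -0.044, with 10 of 16 below 1, and without low-load 2 it was -0.16 with all 16 below. The 3 genes that did not overlap encode the catalytic head and the peripheral stalk.

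Atp5b, the catalytic beta subunit, was the most abundant of the 47 genes per kilobase of transcript (1075 CPM in high-load kidneys and 1439.8 CPM in low-load kidneys). It had 1639.8, 2352 and 2187 CPM in high-load kidneys, against 2588, 2903 and 2785 CPM in low-load kidneys, a log2 fold change of -0.42 (SE 0.21, adjusted p 0.258). Atp5a1, the alpha subunit of the same head, had 1378, 1865 and 1716 CPM in high-load kidneys, against 2133, 2292 and 2187 CPM in low-load kidneys, a log2 fold change of -0.42 (SE 0.19, adjusted p 0.227). In DESeq2 its adjusted p was 0.0446. For both, high-load 2 and 3 lay below every low-load kidney, and values without high-load 1 were -0.28 for Atp5b and -0.30 for Atp5a1. Atp5f1, subunit b of the peripheral stalk, had 314, 484 and 443 CPM in high-load kidneys, against 507, 551 and 501 CPM in low-load kidneys, with a log2 fold change of -0.33 (SE 0.19, adjusted p 0.316) that was -0.16 without high-load 1.

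The rotor is turned by a ring of subunit c, whose mature protein is the same whether it comes from Atp5g1, Atp5g2 or Atp5g3. Atp5g3 had 532, 742 and 669.9 CPM in high-load kidneys, against 723, 886 and 791 CPM in low-load kidneys (log2 fold change -0.30, SE 0.18, adjusted p 0.333). Atp5g1 averaged 233 ± 47.2 CPM in high-load kidneys and 241 ± 6.59 CPM in low-load kidneys, and Atp5g2 98.7 ± 14.2 and 99.5 ± 2.94 CPM in the same order. The mix of the 3 transcripts also lay apart between the groups. Atp5g3 made up 60.5%, 60.4% and 58.1% of the 3 genes' counts per kilobase in high-load kidneys, against 62.3%, 65.8% and 63.6% in low-load kidneys. Its mean share was 59.7 ± 1.34% in high-load kidneys and 63.9 ± 1.75% in low-load kidneys, while Atp5g1 took 25.6 ± 1.12% and 23.2 ± 1.10% and Atp5g2 14.8 ± 0.867% and 12.9 ± 0.668% in the same order. None of these 3 shares overlapped between the groups. Each had an exact permutation p of 0.1, the smallest that 3 against 3 kidneys allow, in a family of 8 shares. Since the 3 shares make up a whole in each kidney, a lower Atp5g3 share means a higher share for the others together. They are therefore not separate observations. The Atp5g3 difference of -4.25 percentage points was -4.65 without high-load 1 and -3.31 without low-load 2. Atp5g1 has 1 annotated pseudogene copy and Atp5g2 has 2, none of them in the count table.

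The other subunits of complex V had log2 fold changes of -0.29 to -0.048. The central stalk gene Atp5c1 was at -0.24, Atp5d at -0.19 and Atp5e at -0.21, and without high-load 1 these were -0.12, -0.072 and -0.062. The stator and membrane subunits Atp5h, Atp5j, Atp5j2, Atp5k, Atp5l and Atp5o lay between -0.063 and 0.071 without high-load 1. Atpif1, which blocks the enzyme from running backwards, had 86.4, 117 and 109 CPM in high-load kidneys, against 122, 104 and 109.6 CPM in low-load kidneys. The groups overlapped, with a log2 fold change of -0.10 (SE 0.13, adjusted p 0.668).

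Across the 4 complexes, the genes that were lower in all 3 high-load kidneys were mostly those with long transcripts. Of 15 genes with a transcript of 1000 bases or more, 11 did not overlap (16.6% of all tested genes of that length) and 13 lay below 1 (49.0%), with a median of -0.33 on the log2 scale. Of 32 genes with a shorter one, 2 did not overlap (10.3% of all tested genes of that length) and 30 lay below 1 (49.8%), with a median of -0.14. Without high-load 1 the medians were -0.18 and 0.00092 in the same order, and without both libraries -0.17 and 4.7e-05. Over the whole table the median of 14062 tested genes of 1000 bases or more was 0.0069 and that of 1881 shorter ones 0.0013. Spearman's rho between length and log2 fold change was -0.39 over the 47 genes and -0.016 over all tested genes with a length, given as a description across genes, which are not independent. The split at 1000 bases was chosen after the values were seen, and Cox7b, among the 11, stands just over it at 1001 bases. The long transcripts belong to subunits of many roles, among them the head subunits Atp5a1 and Atp5b, the membrane anchors Sdhc and Sdhd, the small subunit Cox7b and the carrier Cycs. The part of length in the values was not tested. The exceptions among the long transcripts were Cycs and Cox7a2l, both above a fold change of 1, and Sdhb and Atp5c1, whose groups overlapped.

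**Figure D3:**
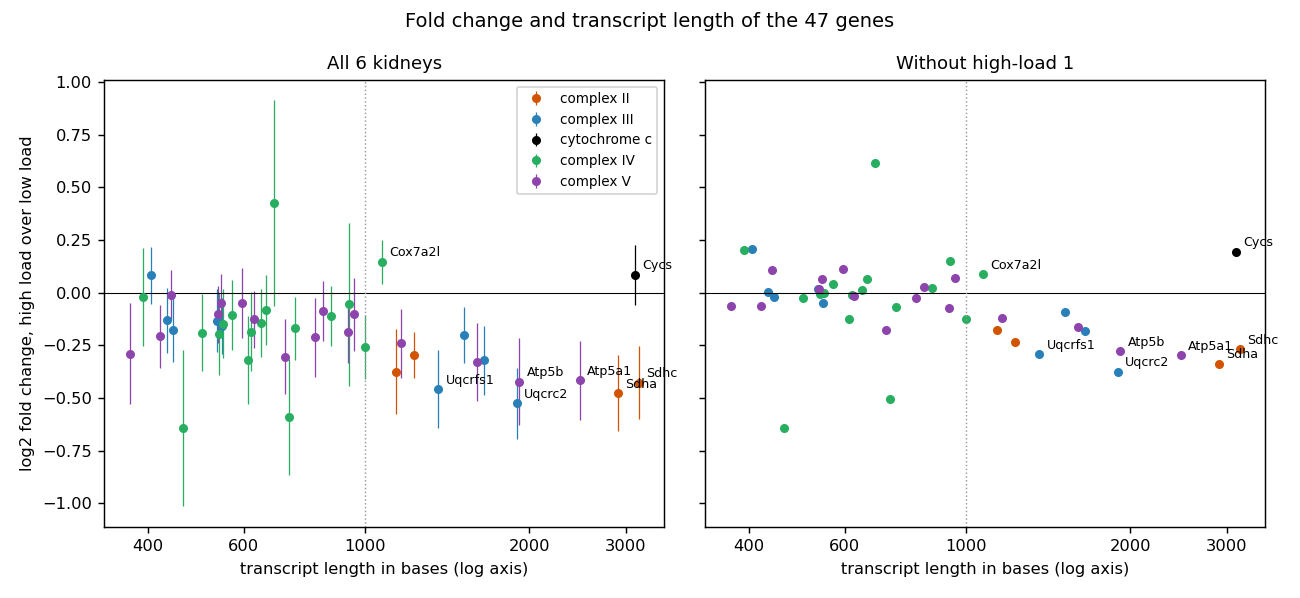
Log2 fold change of high over low load (y axis) against transcript length in bases (log x axis) for the 47 genes, with all 6 kidneys (left, bars are ± 1 SE) and without high-load 1 (right, no bars drawn); the dotted line is at 1000 bases. Short transcripts centre on 0 in the right panel (median 0.00092), while 13 of 15 long ones remain below 0, with Cycs and Cox7a2l above it.

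Markers of some kidney cell types were displaced as well, and others went both ways. All 12 proximal tubule markers lay below a fold change of 1 (49.1% of all genes), and 7 did not overlap (15.8% of all genes). Their summed levels were 4504 to 22384 CPM in high-load kidneys and 20608 to 27617 CPM in low-load kidneys. The sums overlapped through high-load 2, where the marker Kap alone had 9589 CPM, against 4408 to 10599 CPM in low-load kidneys. Of 8 markers of the thick ascending limb and distal tubule, 7 lay below 1, with sums of 5572 to 7346 CPM in high-load kidneys and 7559 to 9945 CPM in low-load kidneys. Macrophage markers went the other way in 7 of 8, with sums of 746 to 1435 CPM in high-load kidneys and 442 to 555 CPM in low-load kidneys. Of 6 collecting duct markers, 4 lay below 1 and 2 above, with sums of 319 to 503 CPM in high-load kidneys and 419 to 906 CPM in low-load kidneys. Pericyte and vascular smooth muscle markers lay below 1 in 5 of 11, with sums of 270.4 to 404 CPM in high-load kidneys and 291 to 339 CPM in low-load kidneys. Markers of the adrenal gland summed to 5.57 to 8.18 CPM in high-load kidneys and 7.79 to 9.60 CPM in low-load kidneys. Fat markers summed to 112, 32.8 and 0.334 CPM in high-load kidneys, against 0.666, 0.182 and 1.53 CPM in low-load kidneys, and Cfd, a protease made by fat cells, made up 93.7 and 23.0 CPM of the sums in high-load 1 and 2. On the log2 scale, medians of the proximal tubule markers against the low-load mean were -2.07, -0.30 and -0.87 in high-load 1, 2 and 3. In the same order of kidneys they were -0.79, -0.24 and -0.31 for complex II and -0.48, -0.096 and -0.062 for complex III. For complex IV they were -0.49, 0.018 and -0.028, and for complex V -0.51, -0.011 and -0.048. The part of these cell types in the subunit values was not tested. In whole kidney, fewer cells of a type and less RNA per cell cannot be told apart.

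**Figure D4:**
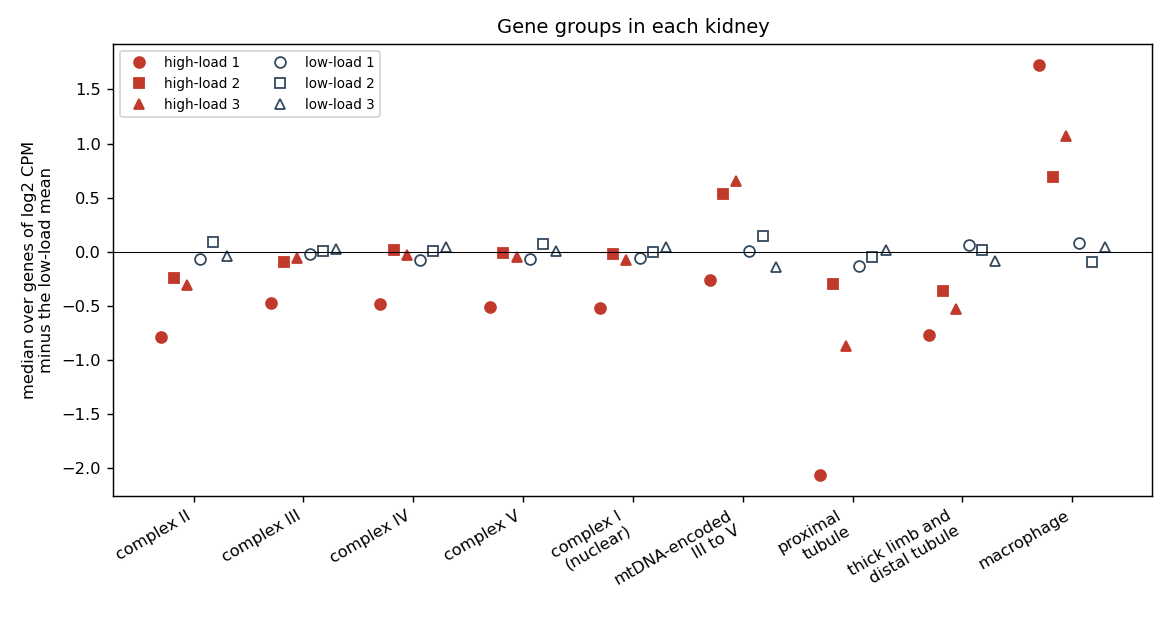
Median over the genes of each group of log2 CPM minus the low-load mean (y axis) in each kidney, for the nuclear complexes, the mtDNA-encoded subunits and 3 sets of cell type markers; filled symbols are high-load kidneys and open symbols low-load kidneys. High-load 1 (filled circle) is lowest in all groups drawn but the macrophage markers, where it is highest, and complexes II and III, the proximal tubule markers and the markers of the thick limb and distal tubule have all 3 filled symbols below all open ones.

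The mtDNA-encoded partners of these subunits showed no common downward displacement. The 6 genes of complexes III to V made from mtDNA had a median of 0.29 on the log2 scale, with 5 of 6 above a fold change of 1 and 0 past the adjusted test. The median was 0.52 without high-load 1, 0.52 without low-load 2 and 0.75 without both. mt-Co3, a core subunit of complex IV, had 676, 721 and 1065 CPM in high-load kidneys, against 433, 461 and 389 CPM in low-load kidneys, without overlap (log2 fold change 0.94, SE 0.21, adjusted p 0.0999). In DESeq2 its adjusted p was 0.00056, and above 0.05 for the rest of the 6. mt-Cytb, the quinone-binding core of complex III, was the gene below 1, with 15272, 19721 and 24322 CPM in high-load kidneys, against 23936, 22754 and 19956 CPM in low-load kidneys. Levels within the 6 lay far apart. mt-Co1, also a core subunit of complex IV, averaged 47014 CPM in high-load and 38720 CPM in low-load kidneys. The means of mt-Co3 were 820 and 428 CPM. How reads with several matches were counted is not known for these genes either, and its part in their levels was not tested. Summed over complexes III to V, the ratio of mtDNA-encoded to nuclear CPM was 5.01, 4.25 and 6.13 in high-load kidneys, against 4.48, 3.58 and 3.55 in low-load kidneys. The groups overlapped through high-load 2 and low-load 1. Since the ratio is a ratio of counts in the same library, it shows unequal proportions and not which genome's transcripts differ.

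**Figure D5:**
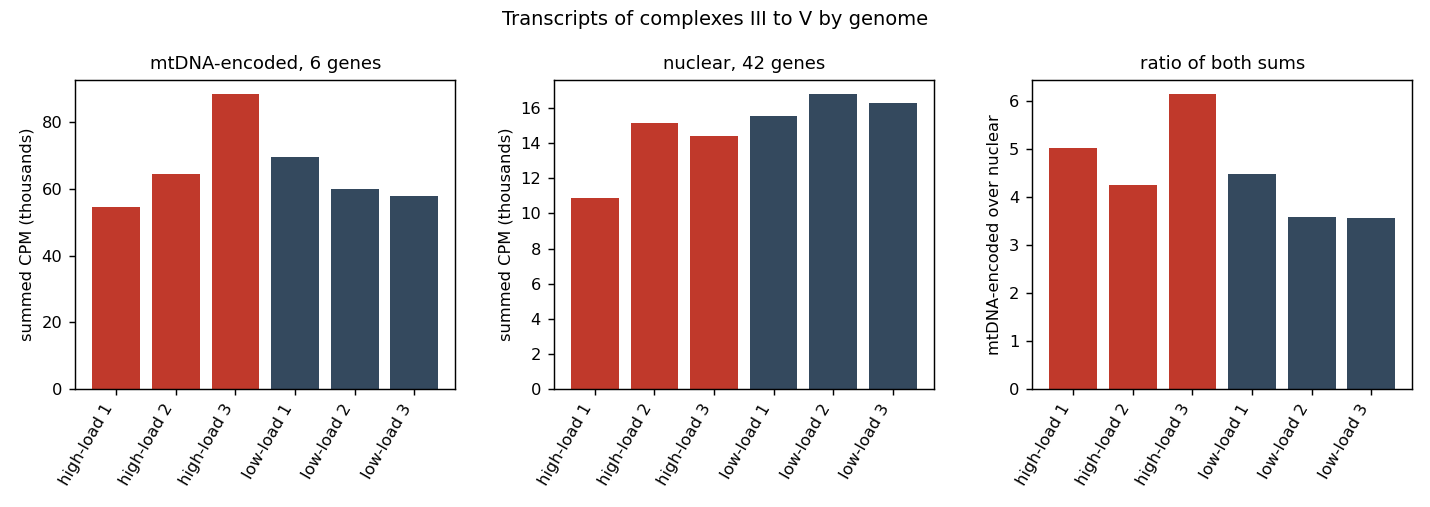
Summed CPM, in units of 1000, of 6 mtDNA-encoded genes (left) and 42 nuclear genes (middle) of complexes III to V and their ratio (right) in each kidney, with high-load kidneys in red and low-load kidneys in dark blue; bars start at 0. The nuclear sum is lower in each high-load kidney than in each low-load kidney, and the ratio is highest in high-load 3 (6.13) and lowest in low-load 3 (3.55).

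Genes of related lists were set beside the 47. The 37 nuclear subunits of complex I had a median of -0.18 on the log2 scale, and -0.051 without high-load 1. Of them 36 lay below 1 (49.1% of all genes), 8 did not overlap (15.8% of all genes) and 0 passed the adjusted test. The list of 10 proteins of the outer membrane and matrix (Vdac, Tomm and matrix enzymes) had a median of -0.063. Of these, 5 of 10 lay below 1 (49.1% of all genes) and 4 did not overlap (15.8% of all genes). Of 13 transcriptional regulators of respiratory genes, 0 passed the adjusted test, 5 were lower in all 3 high-load kidneys (15.8% of all genes) and 1 was higher in all 3 (17.1%). Esrrb, an estrogen-related receptor, had 37.4, 33.6 and 29.0 CPM in high-load kidneys, against 52.8, 60.7 and 52.0 CPM in low-load kidneys (log2 fold change -0.73, SE 0.12, adjusted p 0.0936). Its level was not lowest in high-load 1, and the fold change was -0.81 without that kidney. Perm1, a coactivator partner of this receptor family, averaged 6.72 ± 0.897 CPM in high-load kidneys and 10.2 ± 1.17 CPM in low-load kidneys (adjusted p 0.129). With DESeq2 the adjusted p was 0.00022 for Esrrb and 0.0397 for Perm1, and above 0.05 for the other regulators. Pprc1, a growth-linked relative of the coactivator PGC-1α, was the regulator that was higher in all 3 high-load kidneys, with 40.4, 23.8 and 30.1 CPM in high-load kidneys, against 21.2, 20.7 and 20.3 CPM in low-load kidneys (adjusted p 0.140). The factors whose letters were searched above lay on both sides. Gabpa, the ETS subunit of GABP, averaged 40.7 ± 5.28 CPM in high-load kidneys and 49.7 ± 2.03 CPM in low-load kidneys without overlap (log2 fold change -0.29, adjusted p 0.177). Esrra, the receptor best known for respiratory genes, averaged 114 ± 16.5 CPM in high-load kidneys and 139.9 ± 6.80 CPM in low-load kidneys, also without overlap (log2 fold change -0.29, adjusted p 0.207). Its relative Esrrg had a log2 fold change of -0.18, and its groups overlapped. Nrf1 and Yy1, whose groups overlapped, averaged 20.4 and 86.1 CPM in high-load kidneys and 18.6 and 85.8 CPM in low-load kidneys. Up to 397 bases of the exons of Atp5j, a gene of the 47, lie opposite exons of Gabpa. Whether reads of these 2 genes were counted by strand is not known.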

How the data were processed

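RNA-seq of 6 kidneys (3 high-load and 3 low-load) was analysed from the raw counts the authors deposited, with 1 column a kidney and 1 row an Ensembl gene. Per the labels' protocols, TRIzol RNA went into TruSeq RNA libraries, read as pairs of 150 bases on a DNBSEQ instrument. Tools in the submitters' processing notes are featureCounts 2.0.1, HISAT2 2.2.1, SAMtools 1.11, fastp 0.23.2 and edgeR, with mm10 as build. The sources used here do not give the annotation, strand setting or treatment of reads with several matches. Such reads matter for short genes with copies: 15 of 47 genes have a GENCODE M21 pseudogene of at least 95% identity over at least 150 bases (BLAST 2.17.0), up to 8 for Atp5l, and 14 overlap another counted gene, 24 having either. None of those pseudogenes is in the table.

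Counts were tested in R 4.3.3 with edgeR 4.0.16 (filterByExpr with a minimum count of 10, TMM, robust quasi-likelihood fit on group, two-sided F test, Benjamini-Hochberg adjustment, threshold 0.05). Standard errors come from the F statistic. TMM factors were 1.14 in high-load 1 and 0.944 to 0.997 elsewhere, and the biological coefficient of variation was 23.0%. DESeq2 1.42.0 and limma 3.58.1 (voom) were alternatives. The script was tested on simulated counts. Lengths are those of the shortest principal transcript in GENCODE M21. Named in full are complex II, the 3 smallest p in each other complex, Cycs, Atpif1, the isoforms and subunit c; genes named beyond these were chosen after their values were seen. The 47 genes and the lists were chosen with earlier results of these data known. Replicates are separate animals per the labels' codes, and pairs within a group differed by 21.4 to 100.02 times counting variance. The labels name no batch.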

Additional observations from a re-analysis of the deposited data

How the results depend on the processing

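The number of genes called over the whole table was 3 with edgeR, 50 with no filter on low counts, 1681 with DESeq2, 0 with limma-voom, 1 with the replicate block and 511 at an adjusted p under 0.1. With a library left out it was 0 to 807. The 807 came when high-load 2 was dropped and 3 when high-load 3 was, while dropping high-load 1, any low-load library, or high-load 1 with low-load 2 gave 0. Of the 47 genes, 0 were called in each of these except DESeq2, which called 2 (Uqcrc2 and Atp5a1). A mean of at least 1 CPM as filter left 45 of 47 genes in the test. The replicate numbers do not pair the samples (correlations of same-numbered deviations 0.124, -0.182 and 0.049).

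Signs opposite to those of the TMM fit came in 10 of 47 genes with library totals. With high-load 1 dropped there were 14, with high-load 3 dropped 3, with low-load 3 dropped 2, and with both high-load 1 and low-load 2 dropped 14, a setting chosen after seeing the data. There were 0 among those tested under the other settings. With library totals the values were 0.00098 for Cox6a1, 0.079 for Cox7a1, 0.022 for Cox7a2, 0.041 for Ndufa4l2, 0.054 for Atp5g1, 0.098 for Atp5g2 and 0.0053 for Atpif1. With libraries left out the ranges were -0.024 to 0.21 for Uqcrq, -0.053 to 0.22 for Cycs, -0.20 to 0.083 for Cox6a1, -0.30 to 0.0094 for Cox6b1, -0.19 to 0.20 for Cox7a1, -0.21 to 0.079 for Cox7a2, -0.44 to 0.23 for Ndufa4l2, -0.15 to 0.13 for Atp5g1, -0.091 to 0.12 for Atp5g2 and -0.19 to 0.018 for Atpif1. Signs also changed with libraries left out for Uqcrb, Uqcr10, Cox5a, Cox5b, Cox7c, Atp5j, Atp5j2, Atp5l and Atp5o. In that order their highest values were 0.016, 0.041, 0.045, 0.020, 0.00013, 0.019, 0.073, 0.11 and 0.066. The median over the 47 genes was -0.26 to -0.027 with a library left out, and that of complex IV was 0.00013 without both libraries. The cause was not tested. Each isoform share's difference moved by less than the SD pooled over both groups, but that of Cox6b2 was 0.294 without low-load 2 (-0.977 with all kidneys), that of Ndufa4l2 was -0.026 without low-load 2 (0.236), and that of Cox7a1 was -0.0046, -0.061 and -0.044 without high-load 2, high-load 3 and low-load 1 (0.166). That of Cox6a2 was 0.017 without low-load 2 (0.078). Depth limits the restricted isoforms above all: Cox4i2 rests on 13 to 24 counts a library, and Cox6a2 on 5 in low-load 2.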
